A study of Mus musculus with 18 samples.

Results

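Liver RNA-seq values of 10 genes of de novo lipogenesis were followed in 18 mice. The genes, chosen by symbol from the 54532 of the deposited table, were Fasn, Acaca, Acacb, Acly, Acss2, Me1, Slc25a1, Srebf1, Mlxipl and Thrsp. Each was found once. All 18 mice were male C57BL/6 (C57BL/6J in the methods), 6 weeks old on arrival. The 6 NC mice were normal controls on a standard diet without SZ-A. The 6 HFD mice were fed a high-fat diet for 14 weeks and then given saline while the diet went on, and the 6 SZ-A mice had the same diet and then SZ-A, the alkaloids of mulberry twig (Ramulus Mori). SZ-A treatment lasted 8 weeks by the deposited description and 6 weeks by the study's methods, and neither states dose or route for the sequenced mice. All mice were fasted overnight before the tissue was taken, so the levels are those of a fasted liver. By its title and the group size NC6 is a normal control, but its diet is labelled high-fat, and NC comparisons are also given without it. SZ-A5 stood apart among the SZ-A mice, with the lowest level of its group for 8 of the 10 genes.

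De novo lipogenesis is the making of fatty acids from carbohydrate. Citrate leaves the mitochondrion and is split to acetyl-CoA, acetyl-CoA is carboxylated to malonyl-CoA, and fatty acid synthase joins these units into palmitate with reducing power from NADPH. In liver the pathway is switched on by feeding, through insulin and SREBP-1c (from Srebf1) and through sugar metabolites and ChREBP (from Mlxipl), and is low in fasting. The question was how far the high-fat diet and SZ-A shifted these transcripts.

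The level of a gene is given as FPKM, fragments per kilobase of exon length after the authors scaled each library. Differences are log2 fold changes on the log2(FPKM + 0.1) scale from limma fitted to the 2 groups compared, over the 10216 genes with a mean of at least 1 FPKM, and a call needed a fold change over 1.2 with an adjusted p (Benjamini-Hochberg) below 0.05. All 10 genes passed this filter, and their lowest group mean was 2.39 FPKM (Acaca in HFD mice). Each mouse had 17163191 to 20493907 fragments on genes, and the 10 genes held between 101 (Thrsp) and 4580 (Fasn) fragments in a mouse. Fewer hepatocytes and less RNA of a given gene in each hepatocyte cannot be told apart in whole liver. Of the 10 hepatocyte markers 4 were called lower in HFD than in NC mice and none higher, where 9.49% of all genes were called lower. The markers did not move as 1, and 3 of the 10 had estimates above 0, Ttr (0.01), Cyp2e1 (0.07) and Asgr1 (0.09), none called.

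The 10 genes are spread over 6 chromosomes of GRCm38, with 4 of them on chromosome 11. Sequence upstream of a start site is shown for 3 of them: Fasn and Slc25a1, which had the largest increases by p in SZ-A against HFD mice and varied together from mouse to mouse, and Mlxipl, a regulator called in both comparisons with NC. The windows are the 250 bases before a RefSeq start (GRCm38.p6), read along the gene's strand, and hold no annotated exon. Capitals mark matches on either strand to the E-box CACGTG, the sterol regulatory element TCACNCCAC, the NF-Y box CCAAT and the Sp1 box GGGCGG.
Fasn, chr11:120824548-120824797, minus strand: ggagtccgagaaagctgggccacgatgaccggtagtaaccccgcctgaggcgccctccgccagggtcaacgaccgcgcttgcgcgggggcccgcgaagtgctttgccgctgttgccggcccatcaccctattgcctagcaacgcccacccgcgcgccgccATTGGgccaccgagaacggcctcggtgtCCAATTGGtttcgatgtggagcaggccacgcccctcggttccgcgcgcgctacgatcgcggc
Slc25a1, chr16:17928220-17928469, minus strand: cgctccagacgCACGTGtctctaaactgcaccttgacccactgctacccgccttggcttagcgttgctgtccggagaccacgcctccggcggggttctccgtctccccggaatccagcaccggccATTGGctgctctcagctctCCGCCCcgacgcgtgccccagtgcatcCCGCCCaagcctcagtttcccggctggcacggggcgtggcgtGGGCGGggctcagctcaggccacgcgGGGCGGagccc
Mlxipl, first start, chr5:135089640-135089889, plus strand: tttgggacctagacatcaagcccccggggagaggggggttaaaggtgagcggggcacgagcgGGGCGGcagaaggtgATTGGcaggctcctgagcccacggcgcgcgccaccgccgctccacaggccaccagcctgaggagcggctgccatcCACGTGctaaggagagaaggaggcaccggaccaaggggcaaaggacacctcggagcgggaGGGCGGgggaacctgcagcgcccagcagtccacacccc
Mlxipl, second start, chr5:135106641-135106890, plus strand: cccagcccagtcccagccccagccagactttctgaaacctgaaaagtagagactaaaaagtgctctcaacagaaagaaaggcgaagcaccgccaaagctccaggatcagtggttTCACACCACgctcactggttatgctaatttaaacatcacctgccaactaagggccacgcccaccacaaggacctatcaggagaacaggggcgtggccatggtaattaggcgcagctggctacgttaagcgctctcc
Fasn held NF-Y boxes at -90, -62 and -59 from the start, the last 2 overlapping on opposite strands, and Slc25a1 held 1 at -125, an E-box at -239 and 4 Sp1 boxes. The match to the sterol regulatory element lay at -136 of the second Mlxipl start. Among 14 start windows of the 10 genes, the sterol regulatory element was in 1 (1.05% of all 32851 mouse windows), the E-box in 2 (6.02%), the NF-Y box in 9 (33.8%), the Sp1 box in 7 (32.7%) and the carbohydrate response element in 0 (0.28%). Not all of these windows lie upstream of the gene. The window of Thrsp had 180 of its 250 bases in annotated exons, that of Acss2 had 95, 1 of Me1 had 39 and that of Acacb had 9. Acaca and Acacb had 1 start each, and its window lay inside the annotated gene. The second Mlxipl window, which holds the match to the sterol regulatory element, also lay inside its gene, as did windows of Srebf1 and Me1. A match is a run of letters and not a bound site.

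In HFD against NC mice the 3 regulators rose and the citrate carrier fell. Thrsp, Srebf1 and Mlxipl were called higher (3 of 10, where 10.7% of all genes were called higher), and Slc25a1 was called lower (1 of 10, against 9.49%). In all 4 of 10 were called, against 20.2% of all genes. The other 6, which are the carboxylases, the synthase, both acetyl-CoA sources and the malic enzyme, had estimates below 0 and were not called. The median log2 fold change of the 10 genes was -0.23, beside -0.03 over all genes tested.

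Thrsp (chr7:97412938-97417730, minus strand) encodes Spot 14, a small protein that promotes lipogenesis. It lay between 2.51 and 7.31 FPKM in NC mice (median 3.21), between 11.4 and 111 in HFD mice (median 25.2) and between 6.01 and 85.6 in SZ-A mice (median 41.6). Every HFD mouse was above every NC mouse, and of the SZ-A mice only SZ-A5 fell inside the NC range. In HFD against NC mice the log2 fold change was 2.94 (standard error 0.48, limma adjusted p = 0.00115), and it was the 1 gene of the 10 whose groups did not overlap, against 10.5% of all genes. In SZ-A against NC mice it was 3.15 (standard error 0.53, limma adjusted p = 0.00359). The spread within HFD mice was as large as their mean, 38.5 ± 37.9 FPKM (SD, n = 6), with HFD5 at 111 FPKM against 43.5 in the next mouse.

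Srebf1 (chr11:60199089-60222581, minus strand) encodes SREBP-1, the insulin-dependent activator of the lipogenic enzymes. Its level was 4.14 to 12.9 FPKM in NC mice (median 5.82), 9.83 to 34.0 in HFD mice (median 20.2) and 4.16 to 38.5 in SZ-A mice (median 22.8). All 6 HFD mice were above the NC mean, and the groups overlapped only through NC6, the mouse with the high-fat label, which had the highest level in NC. The increase in HFD against NC mice was 1.53 (standard error 0.34, limma adjusted p = 0.00752). A like estimate in SZ-A against NC mice, 1.48 (standard error 0.47), missed the threshold at an adjusted p of 0.0636. Without SZ-A5, the mouse at 4.16 FPKM, it was 1.91 with an adjusted p of 0.00296, and without NC6 it was 1.68 with an adjusted p of 0.0455. Of 23 alternatives for SZ-A against NC mice 4 called Srebf1, these leave-outs among them, and the limma adjusted p reached 0.19. The 3 RefSeq starts share the gene's FPKM, so transcripts of SREBP-1a and SREBP-1c are not separated here.

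Mlxipl (chr5:135089890-135138382, plus strand) encodes ChREBP, the activator that responds to sugar. It was between 9.11 and 16.3 FPKM in NC mice (median 11.6), between 11.2 and 24.8 in HFD mice (median 19.1) and between 14.1 and 27.9 in SZ-A mice (median 19.2). The groups overlapped in both comparisons with NC, where 5 of 6 HFD mice and 6 of 6 SZ-A mice exceeded the NC mean. The log2 fold change was 0.59 in HFD against NC mice (standard error 0.18, limma adjusted p = 0.0338) and 0.70 in SZ-A against NC mice (standard error 0.16, limma adjusted p = 0.0175). The HFD call was lost without any 1 of NC1, NC2, NC3, NC4, HFD1, HFD2, HFD3 and HFD6, with estimates from 0.50 to 0.72 over all mice left out. Both calls were also lost with no filter on low values (adjusted p = 0.0939 in HFD and 0.0649 in SZ-A against NC mice). The 2 RefSeq starts shown above are not separated in FPKM.

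**Figure D1:**
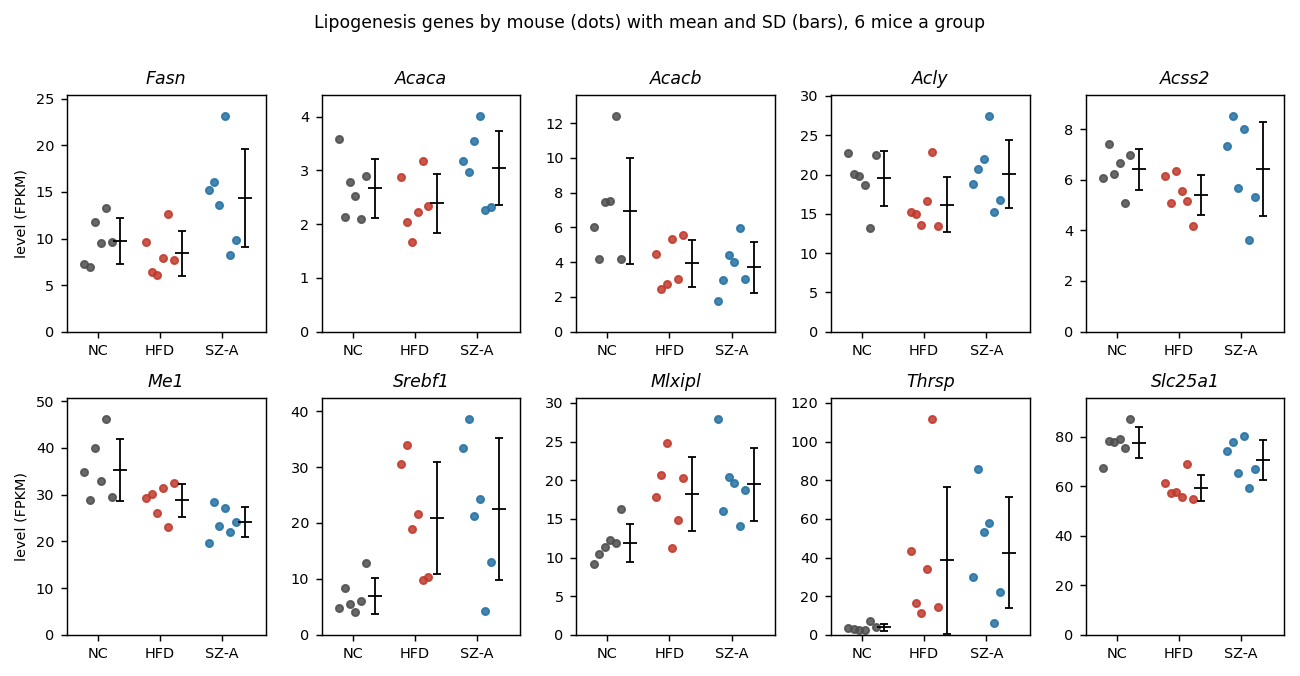
Level of each of the 10 genes (FPKM, linear axis) in each of the 18 mice, by group, with dots for mice in the order of their numbers and bars for the mean and SD of 6 mice. The NC mice lie low and close together for Thrsp and Srebf1, while HFD and SZ-A mice spread widely, with Thrsp at 111 FPKM in HFD5.

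Of the genes that supply the pathway with substrate, Slc25a1 was called lower in HFD mice and Me1 was called lower in SZ-A mice, each against NC. Slc25a1 (chr16:17925223-17928219, minus strand), the mitochondrial citrate carrier, had the highest mean of the 10 genes in every group. Its level was 67.5 to 87.0 FPKM in NC mice (median 78.1), 54.9 to 69.0 in HFD mice (median 57.5) and 59.4 to 80.5 in SZ-A mice (median 70.5). The NC and HFD ranges touched only where HFD5, the highest HFD mouse, passed NC1, the lowest NC mouse. The log2 fold change in HFD against NC mice was -0.39 (standard error 0.08, limma adjusted p = 0.00446). After each mouse was rescaled to the same total FPKM, the common sum used below, it was -0.19 with an adjusted p of 0.128. The median of all genes went from -0.03 to 0.15 with it, and relative to the median Slc25a1 was lower under either scaling.

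Me1 (chr9:86581371-86695953, minus strand), the cytosolic malic enzyme that makes NADPH, was the only one of the 10 called lower in SZ-A against NC mice. It was 28.9 to 46.1 FPKM in NC mice (median 33.8), 23.0 to 32.5 in HFD mice (median 29.7) and 19.6 to 28.3 in SZ-A mice (median 23.7). Every SZ-A mouse was below every NC mouse, while HFD mice overlapped with both. The log2 fold change was -0.54 in SZ-A against NC mice (standard error 0.13, limma adjusted p = 0.0175) and it was the 1 gene of the 10 without overlap there, against 5.5% of all genes. The call was lost with no filter on low values (adjusted p = 0.0572) and with the replicate number as a block (adjusted p = 0.0511). In HFD against NC mice it was -0.29 (adjusted p = 0.119), and in SZ-A against HFD mice -0.25 (adjusted p = 0.286).

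Acly and Acss2 make cytosolic acetyl-CoA, from citrate and from acetate. Acly (chr11:100476353-100528000, minus strand) averaged 19.5 ± 3.50 FPKM in NC mice, 16.1 ± 3.52 in HFD mice and 20.1 ± 4.34 with SZ-A (SD, n = 6 each). Acss2 (chr2:155517948-155585724, plus strand) averaged 6.41 ± 0.818, 5.41 ± 0.786 and 6.41 ± 1.86 FPKM in the same order. Neither was called in any comparison, and the groups overlapped in all of them. Without NC5, the lowest NC mouse for both, Acly was called in HFD against NC mice (-0.39, adjusted p = 0.0455). In HFD against NC mice the estimates were -0.27 for Acly (95% interval -0.60 to 0.05) and -0.24 for Acss2 (-0.49 to 0.00065). The Acss2 gene overlaps Gss on the opposite strand, at 8.18 to 11.7 FPKM, and whether the counting used strand is not given in the sources used here. Protein-coding genes on the opposite strand also overlap Acaca (Gm11437, 0.712 to 2.24 FPKM) and Srebf1 (Rai1, 1.06 to 2.41 FPKM). The length of Acss2 in the table is 3.47 times its longest coding transcript, which lowers its FPKM relative to the other genes.

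The enzymes that build the chain, the synthase and both carboxylases, were not called in any comparison. Fasn (chr11:120805846-120824547, minus strand), fatty acid synthase, was 6.97 to 13.3 FPKM in NC mice (median 9.60), 6.09 to 12.6 in HFD mice (median 7.82) and 8.27 to 23.1 in SZ-A mice (median 14.4). HFD mice lay within or just below the NC range, and the SZ-A mice SZ-A1, SZ-A2, SZ-A3 and SZ-A4 were above all mice of the other groups. The log2 fold change in HFD against NC mice was -0.22 (95% interval -0.64 to 0.20, adjusted p = 0.458). In SZ-A against NC mice it was 0.51 (0.0063 to 1.01, adjusted p = 0.191).

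Acaca and Acacb encode the acetyl-CoA carboxylases, ACC1 of the cytosol and ACC2 of the outer mitochondrial membrane, whose malonyl-CoA restrains fatty acid import. Acaca (chr11:84129672-84401651, plus strand) had the lowest mean of the 10 in every group by the gene lengths of the table, 2.67 ± 0.553 FPKM in NC mice, 2.39 ± 0.551 in HFD mice and 3.05 ± 0.686 with SZ-A (SD, n = 6 each). Its length there is 1.795 times its longest coding transcript, against 1.096 times for Acacb. The place of Acaca in the order need not hold in every group with other lengths. Its log2 fold change in HFD against NC mice was -0.16, and 0.02 with FPKM rescaled to a common sum. Relative to the median of all genes it was -0.13 under either scaling, and it was called under neither. Acacb (chr5:114146535-114250761, plus strand) was 4.19 to 12.4 FPKM in NC mice (median 6.73), 2.43 to 5.57 in HFD mice (median 3.74) and 1.79 to 5.99 in SZ-A mice (median 3.52). All 6 HFD mice and all 6 SZ-A mice were below the NC mean, and the ranges overlapped. The estimates against NC were -0.78 in HFD mice (adjusted p = 0.0621) and -0.89 in SZ-A mice (adjusted p = 0.0781), neither called. Without NC6 the HFD estimate was -0.90 with an adjusted p of 0.0389, and without SZ-A5 the SZ-A estimate was -1.04 with an adjusted p of 0.0359. The HFD gene was also called without NC2 (adjusted p = 0.0449) or without HFD6 (adjusted p = 0.0465).

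Ratios within a mouse do not depend on the scaling between mice. The ratio of Acacb to Acaca FPKM was 1.44 to 5.93 in NC mice (median 2.32), 0.956 to 2.40 in HFD mice (median 1.60) and 0.563 to 2.64 in SZ-A mice (median 1.12). The ratio of Fasn to Srebf1 FPKM was 0.750 to 2.30 in NC mice (median 1.84), 0.189 to 1.28 in HFD mice (median 0.344) and 0.419 to 1.99 in SZ-A mice (median 0.696). The medians of these 2 ratios were highest in NC mice. The ratio of Fasn to Acacb FPKM was 1.07 to 2.31 in NC mice (median 1.42), 1.39 to 4.16 in HFD mice (median 2.19) and 1.38 to 8.49 in SZ-A mice (median 4.35), with the lowest median in NC mice. The ranges of the groups overlapped for each ratio. The ratios are a description and were not tested.

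Against NC, SZ-A mice had 3 of the 10 genes called, against 9.6% of all genes. Thrsp and Mlxipl were higher (2 of 10, against 5.31%) and Me1 was lower (1 of 10, against 4.3%). The median log2 fold change of the 10 genes was 0.11, beside -0.01 over all genes. Srebf1 missed the call as described, and Slc25a1, called lower in HFD mice, was at -0.14 in SZ-A mice (95% interval -0.33 to 0.06, adjusted p = 0.365). Both comparisons share the NC mice. Without NC6 the calls were 4 of 10 in SZ-A against NC and 5 of 10 in HFD against NC, with Srebf1 added in the former and Acacb in the latter, where 9.27% and 19.8% of all genes were called. With FPKM rescaled to a common sum the calls over all genes in HFD against NC were 2100 higher of 2434, in place of 1092 of 2062, and in SZ-A against HFD 10 higher of 216, in place of 8 of 15.

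In SZ-A against HFD mice none of the 10 genes was called, by limma with the thresholds above, where 0.147% of all genes were. With so few calls over all genes, 0 of 10 says little about these genes. The study's own analysis, with DESeq2 at the same thresholds, reported far more genes in this comparison than the 15 called here. At an unadjusted p under 0.05 there were 3 of 10, Fasn, Slc25a1 and Me1, against 14.8% of all genes, and with a fold change over 1.2 there was 1, Fasn, against 9.03%. No gene of the 10 had groups without overlap, against 1.28% of all genes. The median log2 fold change was 0.20, beside 0.03 over all genes, with 7 of 10 estimates above 0.

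Fasn had the largest estimate of the 10 in this comparison, 0.73 on the log2 scale (95% interval 0.21 to 1.25, unadjusted p = 0.00937, limma adjusted p = 0.185), with means of 14.3 ± 5.27 FPKM in SZ-A and 8.41 ± 2.42 in HFD mice (SD, n = 6 each). Of the SZ-A mice 5 of 6 were above the HFD mean, all but SZ-A5. Its adjusted p ranged from 0.0535 with sample weights to 0.344 with no filter on low values. Slc25a1 was 0.25 higher (0.06 to 0.44, unadjusted p = 0.0128, adjusted p = 0.203), with 6 of 6 SZ-A mice above the mean of HFD, and 0.07 higher with FPKM rescaled to a common sum. With that rescaling the median of all genes went from 0.03 to -0.15, and relative to the median Slc25a1 was higher under either scaling. Me1 went the other way, -0.25 (-0.48 to -0.02, unadjusted p = 0.0325, adjusted p = 0.286), with 6 of 6 SZ-A mice below the mean of HFD. Within the pathway the estimates for the synthase and the citrate carrier thus pointed up and that for the malic enzyme pointed down, none past the adjusted threshold.

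The regulators differed little between SZ-A and HFD mice, but with wide intervals. The log2 fold change was -0.04 for Srebf1 (95% interval -1.13 to 1.04), 0.10 for Mlxipl (-0.32 to 0.52) and 0.21 for Thrsp (-1.22 to 1.65). The intervals of Srebf1 and Thrsp reach past 1 log2 unit on either side of 0, so a difference of that size was not excluded with 6 against 6 mice. Narrower intervals were those of Acly, 0.31 (-0.02 to 0.65), and Acss2, 0.20 (-0.20 to 0.60). Acaca was at 0.34 (-0.03 to 0.71) and Acacb at -0.11 (-0.71 to 0.50).

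**Figure D2:**
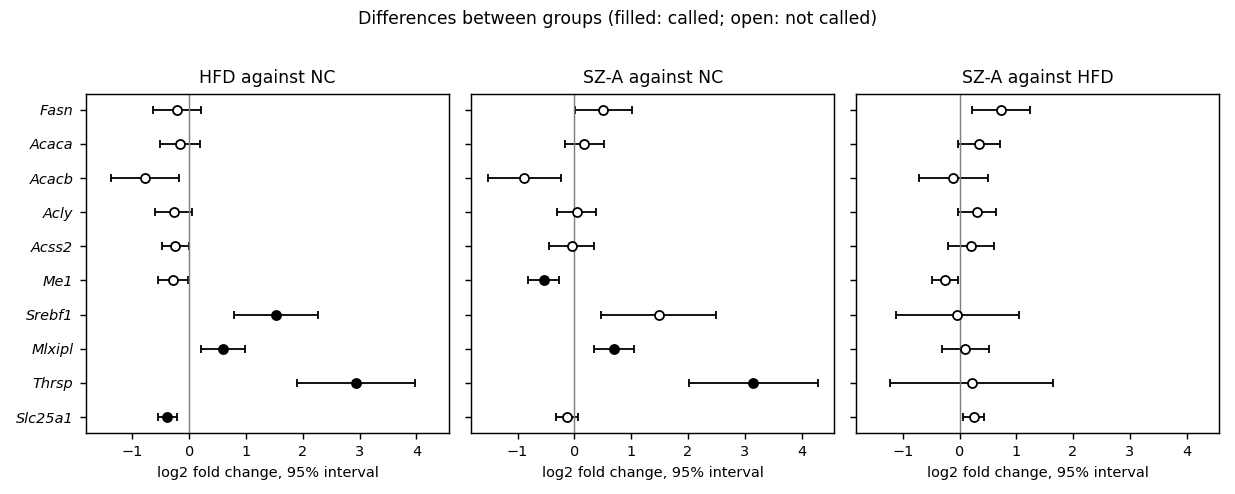
Log2 fold change (horizontal axis) of the 10 genes with 95% intervals in the 3 comparisons, filled where called and open where not. In HFD against NC mice 4 genes are filled, in SZ-A against NC mice 3, and in SZ-A against HFD mice none, with Fasn farthest to the right at 0.73.

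Mice of a group differed from one another for several genes together. SZ-A5 was the lowest SZ-A mouse for 8 genes and among the lowest 2 for 9, and SZ-A4 was among the highest 2 for 7. In HFD mice HFD5 was highest for 5 genes, and in NC mice NC6 was among the highest 2 for 7. SZ-A5 had 8.27 FPKM of Fasn, 4.16 of Srebf1 and 6.01 of Thrsp, each inside the NC range. Without SZ-A5, 5 of the 10 genes were called in SZ-A against NC mice, with Srebf1 and Acacb added, and none in SZ-A against HFD mice. Over all genes 11.5% were then called in SZ-A against NC mice, in place of 9.6%.

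**Figure D3:**
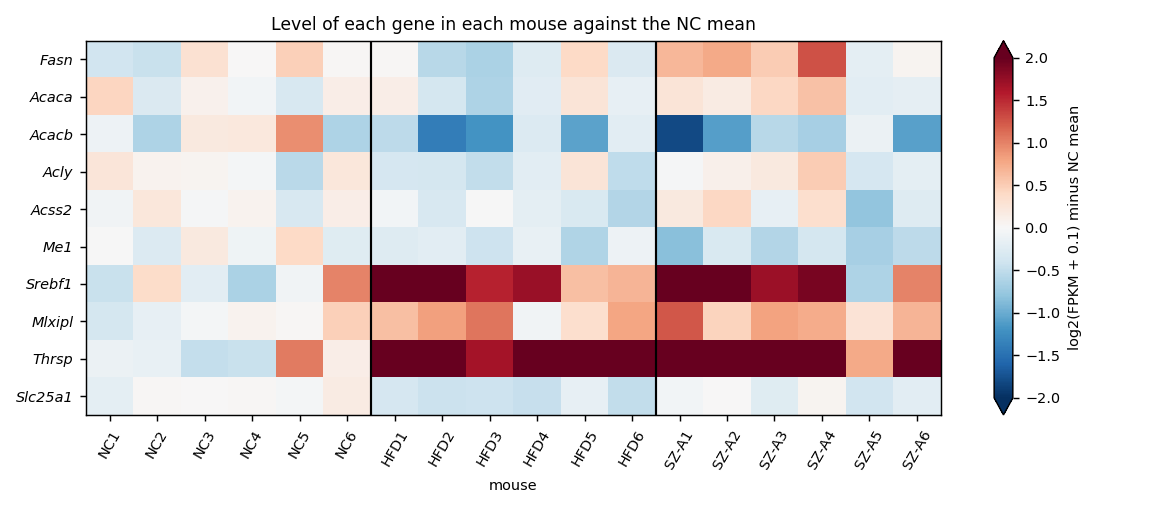
Level of each gene (rows) in each mouse (columns) as log2(FPKM + 0.1) minus the NC mean, with colours that stop at 2 in either direction. Srebf1 and Thrsp are above the NC mean in HFD mice and in most SZ-A mice. SZ-A5 is below the NC mean for Srebf1 (-0.62) and paler than its group for Thrsp (0.76).

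Which genes varied together was examined over the 18 mice after subtracting each group's mean, for the 45 pairs of the 10 genes. Permutation tests, 100000 shuffles of mice within their groups and two-sided, gave adjusted p under the threshold for 5 pairs by Pearson's r and for 2 of these also by Spearman's rho. Acaca and Acly had r = 0.80 and rho = 0.76 (permutation p = 0.00028 and 0.00095, adjusted 0.0115 and 0.0214), and r = 0.79 without the 2 mice farthest from the median of Acaca. Fasn and Thrsp had r = 0.78 and rho = 0.76 (permutation p = 0.00051 and 0.00043, adjusted 0.0115 and 0.0193), and r = 0.73 without the 2 farthest mice. The r of Fasn and Thrsp was 0.45 within NC mice, 0.95 within HFD mice and 0.81 within SZ-A mice.

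The other 3 pairs passed by r alone. Fasn and Slc25a1 had r = 0.73 and rho = 0.70 (permutation p = 0.0025 and 0.00467, adjusted 0.0281 and 0.0607), and r = 0.58 without the 2 farthest mice. Acss2 and Srebf1 had r = 0.79 and rho = 0.67 (permutation p = 0.00145 and 0.00674, adjusted 0.0217 and 0.0607), and r = 0.57 without the 2 farthest mice. Acss2 and Slc25a1 had r = 0.70 and rho = 0.73 (permutation p = 0.00504 and 0.00553, adjusted 0.0454 and 0.0607), and r = 0.55 without them. By these estimates over all 18 mice, Fasn followed Thrsp and Slc25a1 more closely than its regulator Srebf1. For Fasn and Srebf1 r was 0.30 and rho 0.27 (permutation p = 0.306 and 0.314, adjusted 0.475 and 0.543). Within NC, HFD and SZ-A mice the r of Fasn with Srebf1 was -0.07, -0.44 and 0.79. With Slc25a1 it was 0.25, 0.82 and 0.91. In SZ-A mice the r with Srebf1 was thus near that with Thrsp (0.81). A difference between correlations was not tested. All values of a mouse come from 1 library and share its scaling.

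**Figure D4:**
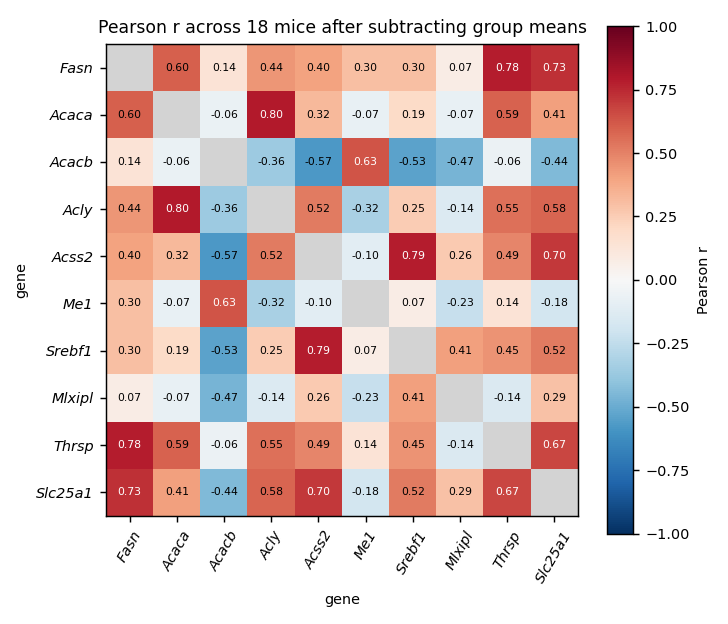
Pearson's r between the 10 genes over 18 mice after subtracting group means, from -1 (blue) to 1 (red), with the value in each cell. Acaca with Acly (0.80), Acss2 with Srebf1 (0.79) and Fasn with Thrsp (0.78) are highest, and Acacb with Acss2 (-0.57) is lowest.

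Over all genes tested, those most like Fasn by the same measure were Mid1ip1 (r = 0.82, rho = 0.79), Ccm2l (0.81, 0.81), Osbpl5 (0.81, 0.74), 2300009A05Rik (0.80, 0.73) and Gm4737 (0.79, 0.69). Mid1ip1 encodes a partner of Spot 14 that activates acetyl-CoA carboxylase. Among those most like Srebf1 were Slc25a48 (r = 0.89, rho = 0.81), Pth1r (0.87, 0.91), 1700001C19Rik (0.86, 0.83) and Aplp2 (0.85, 0.82). For Mlxipl they were Leng8 (r = 0.87, rho = 0.81), Pnisr (0.84, 0.82), Cyp2d36-ps (0.82, 0.84), 4933411K16Rik (0.82, 0.73) and Firre (0.82, 0.77). These genes are among the highest of 10216 over the same 18 mice, and their r was not tested.

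Around the 10 genes, 61 of 67 genes in 6 lists of the neighbouring steps were tested, and the calls in HFD against NC mice were 10 higher and 7 lower. Over all genes 10.7% were called higher and 9.49% lower in that comparison, and 5.31% and 4.3% in SZ-A against NC mice, and the counts of each list below stand beside these shares. The median log2 fold change of the 61 was 0.01 in HFD against NC, 0.03 in SZ-A against NC (6 higher, 3 lower) and 0.10 in SZ-A against HFD mice (0 called by limma, 14 at an unadjusted p under 0.05). Sugar-responsive partners of Mlxipl gave 3 higher and 2 lower of 12 in HFD against NC mice, and 3 higher and 1 lower in SZ-A against NC mice. Pklr, liver pyruvate kinase, was 0.86 higher in HFD mice (limma adjusted p = 0.00751) and 1.08 higher in SZ-A mice (limma adjusted p = 0.000351). G6pc, glucose-6-phosphatase, was at -1.26 in HFD mice (limma adjusted p = 0.0305).

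Among the partners in acetyl-CoA, citrate and malonyl-CoA metabolism, 2 of 11 genes were called higher in each of the 2 comparisons with NC, and none lower. Aacs, which activates acetoacetate for lipid synthesis, rose by 2.05 in HFD mice (limma adjusted p = 0.00439) and by 2.11 in SZ-A mice (limma adjusted p = 0.000365). Mid1ip1 rose by 0.63 (limma adjusted p = 0.00268) and by 1.09 (limma adjusted p = 0.00893). In the list of cytosolic NADPH supply, 3 of 9 were called higher in HFD against NC mice. G6pdx and Pgd, the NADPH-making enzymes of the pentose phosphate route, were 0.57 and 0.37 higher (limma adjusted p = 0.0381 and 0.0463), where Me1 was at -0.29. In SZ-A against NC mice none of the 9 was called, with Idh1 at the smallest p (0.43, limma adjusted p = 0.0673).

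Of the genes that process SREBP or act upstream of it, 2 of 11 were called lower in HFD against NC mice and none higher. Insig2, which retains SREBP in the endoplasmic reticulum, was at -1.50 in HFD mice (limma adjusted p = 0.00325) and -1.45 in SZ-A mice (limma adjusted p = 0.0155), the 1 gene of the list called there. Scap, the escort of SREBP, was at -0.42 in HFD mice (limma adjusted p = 0.00485). The list headed use of newly made palmitate holds genes of fatty acid activation, elongation, desaturation and esterification, which also act on fatty acids from the diet. Of its 12 genes 2 were called higher and 3 lower in HFD against NC, and 1 and 1 in SZ-A against NC mice. Dgat2, which completes triglyceride, was 0.64 and 0.76 higher (limma adjusted p = 0.000441 and 0.000979), Elovl5, an elongase, was at -1.72 and -1.31 (limma adjusted p = 3.86e-05 and 0.00406), and in HFD mice Scd2 was at 0.87 and Fads1 at -0.60 (limma adjusted p = 0.00485 and 0.012). None of the 6 genes of AMPK, the kinase that inhibits the carboxylases, and Stk11 was called against NC, with Prkaa2 at 0.27 in HFD mice (limma adjusted p = 0.246) and Prkag2 at 0.12 in SZ-A mice (limma adjusted p = 0.645).

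**Figure D5:**
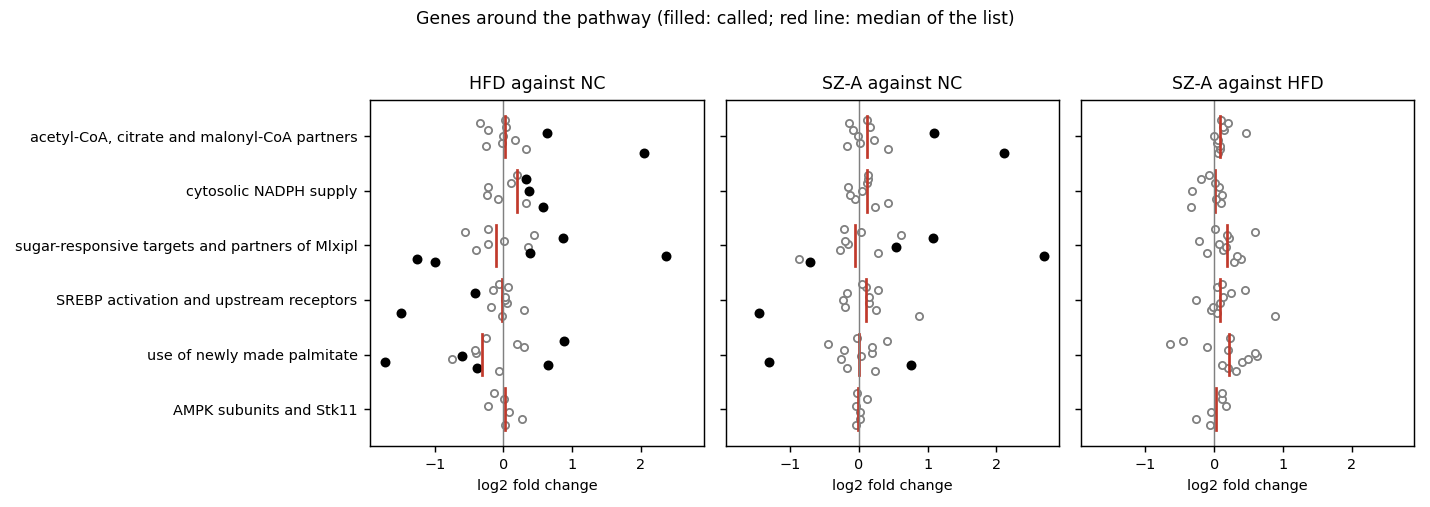
Log2 fold change (horizontal axis) of the 61 tested genes of the 6 neighbouring lists in the 3 comparisons, filled where called, with a red line at each list's median. Called genes lie on both sides of 0 against NC, with Elovl5 at -1.72 and Aacs at 2.05 in HFD mice, and none is called in SZ-A against HFD mice.

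Other states of the liver moved with the diet. Of 10 fasting-response genes 7 were called lower in HFD and 5 in SZ-A against NC mice and none higher, with summed levels of 4483 to 8607 FPKM in NC mice, 3026 to 4117 in HFD mice and 3342 to 4778 with SZ-A. The NC and HFD sums did not overlap. Of 10 tested clock genes 3 were higher and 1 lower in HFD, and 4 and 1 in SZ-A against NC mice. Adipocyte markers gave 4 higher of 5 tested in HFD and 1 lower in SZ-A against NC mice, with sums of 107 to 447 FPKM in NC mice, 580 to 1355 in HFD mice and 103 to 1093 with SZ-A, while Adipoq and Plin1 were at most 0.618 and 0.294 FPKM in any mouse. In HFD against NC mice 3 of 8 Kupffer cell, 5 of 8 stellate cell and 1 of 6 endothelial cell markers were called higher, and 0 of 2 cholangiocyte and 0 of 5 red blood cell markers were called, where 10.7% of all genes were called higher and 9.49% lower. Kupffer cell sums were 91.3 to 195 FPKM in NC mice, 145 to 303 in HFD mice and 169 to 216 with SZ-A, stellate cell sums 51.5 to 71.8, 75.4 to 111 and 66.5 to 94.7, and hepatocyte sums 44325 to 62385, 29981 to 49147 and 35528 to 61272. In HFD mice the adipocyte, stellate cell and hepatocyte sums came mostly from 1 gene each. These were Car3 (516 to 1184 FPKM), Ecm1 (51.1 to 67.5) and Alb (16117 to 29799). The sums are therefore not amounts of a cell type. In SZ-A against NC mice 1 Kupffer cell and 1 stellate cell marker were higher, 1 hepatocyte and 1 cholangiocyte marker were lower, and no endothelial or red blood cell marker was called, where 5.31% of all genes were higher and 4.3% lower. In SZ-A against HFD mice 1 Kupffer cell marker, Cd68, was lower and no other gene of these 9 lists was called. The part of these differences in the results for the 10 genes was not tested.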

How the data were processed

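Liver poly-A RNA of 18 mice (6 NC, 6 HFD, 6 SZ-A) was sequenced by the authors as paired-end reads and aligned to GRCm38 with HISAT2 2.0.5, and, by the submitters' processing notes, counted with featureCounts 1.5.0-p3. The authors deposited 1 table of FPKM with gene length, which is the unit used here. FPKM times length gave whole fragments for 100% of values within 0.05 of a fragment, 17163191 to 20493907 per mouse, and the authors' scaling moved library sizes by factors of 0.933 to 1.14. The factors differed with the group. They were 0.933 to 1.02 in NC mice, 0.998 (HFD5) to 1.14 in HFD mice and 0.972 to 1.05 in SZ-A mice.

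Groups came from sample titles. log2(FPKM + 0.1) was fitted with limma 3.58.1 (R 4.3.3, lmFit, eBayes with trend) for the 10216 genes with a mean of at least 1 FPKM, each comparison on its own 2 groups, and p-values were adjusted by Benjamini-Hochberg. The script was tested on simulated data. Python 3.11.15 did the rest. The 10 genes, the 6 pathway lists and the 9 lists of fasting, clock and cell type genes were chosen with earlier results of these data known. Of each pathway list the genes named are the called ones with the largest changes, up to 2 in a direction, or the smallest p, and some genes that this rule and the rule of likeness cover are not reported here. Alternatives were other pseudocounts, filters, scalings, fits and call rules, voom on the fragments, a replicate block and each mouse left out. Promoters were RefSeq windows, and all 10 genes matched. Coordinates of the 10 genes equal those of GENCODE M21. No 2 mice of a group were duplicates. Replicate numbers did not pair the mice.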

Additional observations from a re-analysis of the deposited data

Results flagged for a closer look

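For the 27 genes named from the pathway, 81 sets of 6 mice were checked for a single mouse set apart by Dixon's criterion. Of these, 10 had one. The criterion flags about 1 in 20 independent sets of normal values. These sets were on the linear FPKM scale and shared mice and genes that vary together, so an excess over that rate was not tested. HFD5 stood out 4 times, with 22.9 FPKM of Acly (16.6 in the next mouse), 111 FPKM of Thrsp (43.5 in the next), 40.8 FPKM of Aacs (15.1 in the next) and 13.2 FPKM of Prkaa2 (9.47 in the next). NC5 stood out 3 times within NC, with 7.31 FPKM of Thrsp (3.87 in the next mouse), 491 FPKM of Insig2 (206 in the next) and 6.53 FPKM of Mid1ip1. In SZ-A mice Aacs was 23.9 FPKM in SZ-A1 (10.7 in the next mouse), and Idh1 was 91.9 FPKM in SZ-A5 (132 in the next). Insig2 was 116 FPKM in HFD3 (71.8 in the next mouse). The 4 values of HFD5 are all high for its group, and their cause was not tested.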

How the results depend on the processing

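With each mouse left out in turn, the number of the 10 genes called was 0 to 0 in SZ-A against HFD, 3 to 5 in HFD against NC and 3 to 5 in SZ-A against NC mice, and of the other pathway genes 0 to 0, 14 to 20 and 8 to 11. Sample weights gave 7 of the 10 in HFD against NC and 5 in SZ-A against NC, and 1 and 14 of the other pathway genes in SZ-A against HFD and SZ-A against NC, while the share of all genes called rose as well, to 26.1% in HFD against NC, 16.5% in SZ-A against NC and 2.28% in SZ-A against HFD. An unadjusted p under 0.05 with a fold change over 1.2 gave 1 and 6 of the 10, and 10 and 14 of the others, in SZ-A against HFD and SZ-A against NC, where 9.03% and 20.2% of all genes passed. With no filter on low values 1 of the 10 was called in SZ-A against NC mice, and without SZ-A5 there were 5. With the replicate number as a block (replicate block) the counts were 0, 4 and 3, though equal numbers marked no shared deviation (correlation -0.12 to 0.29), with Me1 lost (adjusted p = 0.0511) and Acacb gained (adjusted p = 0.0152) in SZ-A against NC. The calls of Thrsp in both comparisons with NC and of Srebf1 in HFD against NC were made in all 23 alternatives. The signs that turned were all of genes not called. With a common sum they were Mlxipl in SZ-A against HFD (-0.074) and Acaca in HFD against NC (0.024). The median of all genes was then -0.15 in SZ-A against HFD and 0.15 in HFD against NC, in place of 0.03 and -0.03. With mice left out in turn in SZ-A against HFD, Acacb ranged from -0.26 to 0.075, above 0 without HFD6 or SZ-A1, Srebf1 from -0.26 to 0.38, above 0 without HFD1, HFD2, SZ-A5 or SZ-A6, Mlxipl from -0.028 to 0.20, below 0 without HFD4 or SZ-A1, and Thrsp from -0.072 to 0.69, below 0 without HFD3 or SZ-A2. In SZ-A against NC, Acly ranged from -0.070 to 0.11, below 0 without NC5 or SZ-A4, and Acss2 from -0.14 to 0.10, above 0 without SZ-A5. The cause of the shifts with mice left out was not tested. Acaca and Acacb were not tested at a mean of at least 5 FPKM. Depth limits Thrsp most, with as few as 101 fragments in an NC mouse.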
